A study of Mus musculus with 4 samples.

Results

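Jmjd3 knockout macrophages were compared with wild-type macrophages after lipopolysaccharide (LPS), gene by gene, on the pair of arrays hybridised with RNA from the LPS-treated cells. Members were the genes with a probe set naming 1 gene, taken at whichever of its probe sets was brightest on average, that reached log2 6 on the higher of the LPS arrays. These were 8630 of 18193 genes. Mouse marrow cells had spent 5 days in M-CSF, a growth factor that turns them into bone marrow-derived macrophages, and the cells compared here then received LPS at 100 ng/ml for 4 h. One group was labelled wild type and the other Jmjd3-/-, a loss of Kdm6b on both alleles. Unstimulated cells of both genotypes supplied the remaining 2 arrays and are given beside the LPS values. The labels name no strain, age, sex, number of animals or deleted exon. Each group held 1 array, so sizes are described and no difference has a replicate check or a test.

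Kdm6b encodes the histone demethylase Jmjd3, which removes methyl groups from lysine 27 of histone H3, a mark laid down by the Polycomb complex PRC2 at silent genes. LPS, from the cell wall of Gram-negative bacteria, binds Toll-like receptor 4 on macrophages. Its adaptor MyD88 leads to NF-kB and MAP kinase signalling and cytokine genes, and its adaptor TRIF to interferon beta and the genes interferon induces. Jmjd3 is known for its induction in macrophages by inflammatory signals and for a part in alternative (M2) macrophage activation.

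Levels are log2 values from the RMA method, and a difference is knockout minus wild type on the log2 scale, so that 1 is 2-fold. Where the lower array lay under log2 6, called the floor, that size depends on a reading of background. At the floor, Zfp750 was just inside (6.0018 in wild type, 5.26 in knockout) and Ap4m1 just outside (5.9998 and 5.58). Array medians lay between 4.15 and 4.24, and the 3' minus 5' differences of the actin control between 0.65 and 0.75. Kdm6b itself read 11.23 and 10.82 on its brightest probe set with LPS. Its next probe set differed by 0.85 the other way and the dimmest was under the floor on both arrays, and no source says whether these probes lie in the deleted part, so Kdm6b gives no check of the labels. The X-linked Xist RNA read 5.77 in wild type and 8.27 in knockout with LPS (5.69 and 8.09 unstimulated), whereas the Y-linked genes Eif2s3y (-0.02) and Kdm5d (0.05) were nearly equal on the LPS arrays. The part of whatever sets Xist apart in any result was not tested.

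Defining macrophage markers were bright on both LPS arrays. Csf1r, the M-CSF receptor, read 12.26 in wild type and 12.16 in knockout, Adgre1, the gene of a classical macrophage surface antigen, 11.43 and 11.84, and Cd68 12.15 and 12.29. Itgam, the gene of CD11b, was dimmer at 7.87 and 6.84. Of 23 macrophage identity genes 19 lay within 2-fold, near the 84.6% of all members that did, as did all 13 housekeeping genes (between -0.34 and 0.46). Markers of granulocytes and stromal cells differed far more. Of 18 granulocyte precursor markers 16 were past the floor. At least 2-fold higher in the knockout were 14 of these, beside 9.76% over all genes. The count was 6 of 8 where both arrays passed the floor, beside 4.54% over all such genes, with a median of 1.92 in place of 4.66. The summed level of the granulocyte markers was 12.40 (log2 of the sum of linear values) in wild type and 15.32 in knockout. Ngp read 4.06 in wild type and 11.68 in knockout, Mpo 4.16 and 11.02, and Elane 3.80 and 9.05. Of 27 stromal markers 26 were past the floor and 21 were 2-fold or more higher, beside 9.76% over all genes. Their summed levels were 13.68 and 15.79. Col1a1 read 6.30 in wild type and 11.87 in knockout, and Pdgfra 3.72 and 7.60. In bulk RNA, fewer cells of a type and less RNA per cell cannot be told apart. The dendritic cell marker Flt3 (3.03 and 2.98), the NK marker Ncr1 (3.88 and 3.39) and the eosinophil marker Epx (3.48 and 4.44) were near background on both arrays. So were the osteoclast marker Calcr (3.58 and 3.36) and the erythroid marker Gata1 (3.50 and 4.14). Other defining markers of these lists were not. Acp5 of the osteoclast list (11.86 and 11.29) and Pf4 of the megakaryocyte list (12.50 and 12.47) were bright on both arrays. Past the floor in wild type alone were the dendritic Zbtb46 (6.46 and 5.22), the T cell marker Cd3e (7.49 and 4.69), Mcpt8 (8.40 and 5.85) and Cpa3 (6.77 and 3.34).

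Among all 8630 genes, 842 (9.76%) lay at least 2-fold higher in the LPS-treated knockout and 488 (5.65%) at least 2-fold lower, and the median difference was 0.04. At 4-fold, 380 (4.40%) were higher and 167 (1.94%) lower. Much of the excess of higher genes lay in genes read under the floor in wild type. Among the 7556 genes past the floor on both LPS arrays, 343 (4.54%) were 2-fold or more higher and 306 (4.05%) lower. Other probe sets of the same genes mostly ran the same way: 514 of 524 past the floor had the sign of the one used, for 382 genes with a 2-fold difference. Between probe sets of a gene the median standard deviation of the difference was 0.16, a measure of probe choice and not of biological spread.

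**Figure D1:**
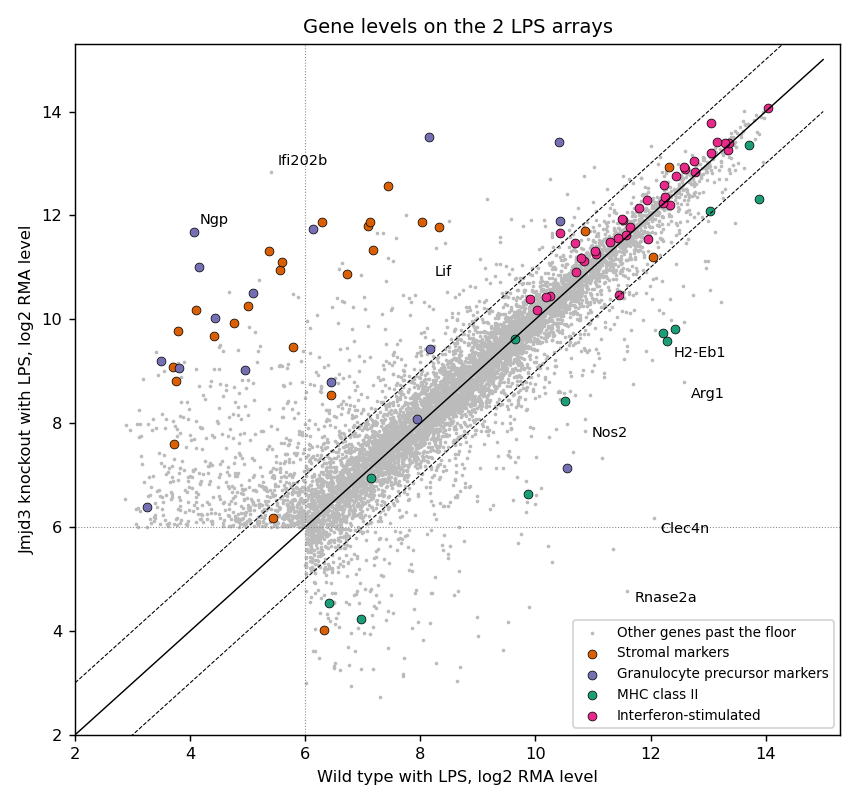
Levels of 8630 genes on the LPS array of wild type (horizontal axis, log2 RMA) and of knockout (vertical axis, log2 RMA), 1 point a gene. The solid line marks equal levels, dashed lines 2-fold and dotted lines the floor of log2 6. Stromal and granulocyte markers lie mostly at the upper left, MHC class II genes below the line, and interferon-stimulated genes along it.

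The genes lowest in the knockout among those above the floor on both arrays included several of secreted and surface products. Acpp, a prostatic-type acid phosphatase gene, read 12.20 in wild type and 6.01 in knockout, a 73.3-fold lower level, and its other probe sets past the floor differed by between -6.48 and -3.91. Clec4n, which encodes the fungal pattern receptor dectin-2, read 12.06 and 6.18. Both were lower without LPS as well, by smaller differences (-4.20 and -4.71). Ly6i, a Ly6 surface protein gene, read 11.15 against 7.32, and U90926, an LPS-inducible transcript, 9.83 against 6.30. U90926 differed by 0.80 in the unstimulated pair, where both arrays were under the floor. Others among the 15 lowest were Mmp8 (-3.41), Piwil2 (-3.37), Chchd10 (-3.21), Adgb (-3.09) and Dcstamp (-3.01), the gene of a protein needed for macrophage fusion. Arg1, Csf2, F3, Pdcd1lg2, H2-DMb2 and Slc7a11 complete the 15 and are given with their groups.

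A further 99 genes were 4-fold or more lower with the knockout array under the floor. The brightest in wild type was Rnase2a, of the eosinophil-associated ribonuclease family, at 11.60 against 4.76, and its relative Ear3 read 9.75 against 5.86. Plet1, a surface protein gene, read 11.34 and 5.58. Cd1d1, which presents lipids to NKT cells, read 10.29 and 5.32. Epha4, an ephrin receptor gene, read 9.90 with LPS and 5.96 without in wild type, and under the floor in both knockout arrays (4.46 and 3.69). Flrt3 (9.52 against 4.18) and Car4, a membrane carbonic anhydrase gene (8.999 against 3.90), likewise had their highest level of the 4 arrays in wild type with LPS. Spsb4 (-4.73) and Gata2 (-3.04), a transcription factor gene of blood progenitors and mast cells, were also in this set.

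On the higher side many of the ranked genes, but not all, were those of the stromal and granulocyte lists. Above the floor on both arrays, Camp, the cathelicidin gene, read 6.13 in wild type and 11.73 in knockout, and S100a9, a calcium-binding protein gene of neutrophils, 8.15 and 13.51. Sparc (5.13), Col1a2 (4.74), Acta2 (4.70), Tagln (4.15) and Cald1 (4.14) encode matrix or contractile proteins of fibroblasts and smooth muscle. In neither list were Lhfp (4.45), Serpinf1 (4.40), the glypican gene Gpc4 (4.39), Ccn1 (4.31), Fat1 (4.26), Igfbp7 (3.98) and Nedd4 (3.94). With wild type under the floor, 293 genes were 4-fold or more higher. Col3a1 (11.32), Thbs2 (11.11), Col5a2 (10.94), Tpm2 (10.75) and Col4a1 (10.48) were among the 12 brightest on the knockout LPS array. Tpm2 and Col4a1 are in neither list. Ltf, the lactoferrin gene, read 5.08 and 10.51, and Postn, the periostin gene, 5.01 and 10.26. Not every list member went this way: Mmp8, a neutrophil collagenase gene, was lower in the knockout (10.55 and 7.14), as was Thy1 (6.32 and 4.02). Csf3r (0.14) and the stromal members Vcam1 (0.62), Dcn (0.73), Thbs1 (0.85) and Fn1 (-0.84) were within 2-fold. Enzymes that process collagen were mixed. P4ha2 (3.20) and Plod2 (3.10), which hydroxylate collagen, Pcolce (4.50) and Loxl1 (4.11) were higher from under the floor in wild type, while the prolyl hydroxylase gene P4ha1 (-0.06) and its partner P4hb (0.13) were nearly equal. The chaperone genes Hspa5 (-0.17) and Hsp90b1 (-0.09) were nearly equal too. In the whole list 6 of 19 were 2-fold or more higher, beside 9.76% over all genes, and 1 of them was past the floor on both arrays.

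Among LPS-inducible cytokine genes, GM-CSF, the IL-12 family subunits measured and Il6 were lower in the knockout while Lif and Csf1 were higher. Of 23 members 9 were at least 2-fold lower and 2 higher, beside 5.65% lower and 9.76% higher over all genes. Their median was -0.56, or -0.23 for those past the floor on both arrays, beside 0.04 over all genes. Csf2, the GM-CSF gene, read 8.81 unstimulated and 9.99 with LPS in wild type, and 3.79 and 6.45 in knockout, an 11.7-fold lower level with LPS. Il12a, the p35 subunit of IL-12, read 8.25 in wild type and 5.04 in knockout with LPS, and 3.88 and 3.40 unstimulated. Only the wild-type LPS array was thus past the floor for Il12a, and the same held for Il23a, the p19 subunit of IL-23 (7.15 against 4.30). Their shared partner Il12b (p40) was read on both LPS arrays, at 11.58 and 10.13. Il6, a main LPS-induced cytokine, read 13.12 in wild type and 11.68 in knockout. Osm (-1.97), the alarmin gene Il33 (-1.82) and Edn1 (-1.11) were also lower. Tnf and the IL-1 genes were less far apart: Tnf at 12.62 and 12.06, Il1b at 13.63 and 12.91, Il1a at -0.73. Il10 (0.34), Ifnb1 (0.19) and Vegfa (0.43) lay just above 0. Lif, an IL-6 family cytokine gene, read 8.46 in wild type and 10.53 in knockout, and Csf1, the M-CSF gene, 9.31 and 11.06. Lif was higher in the unstimulated knockout as well (5.11 and 8.65), and stromal and granulocyte markers were higher on the same arrays, whose part in these values was not tested.

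Receptors for some of these cytokines were lower too. Both GM-CSF receptor genes read lower in the knockout, Csf2ra at 10.84 and 9.72 and Csf2rb at 12.19 and 10.74. Il7r, the IL-7 receptor gene, read 12.34 and 10.39, and the decoy receptor Il1r2 7.52 and 4.34. Il2ra, at 6.40 and 4.26, passed the floor on the wild-type array alone. By contrast Tnfrsf12a, the receptor of TWEAK, was 8.24-fold higher in the knockout (6.23 and 9.28). In the whole receptor list 5 of 21 members were at least 2-fold lower and 3 higher, beside 5.65% and 9.76% over all genes (median -0.11), and the TNF receptors Tnfrsf1a (0.04) and Tnfrsf1b (-0.20) lay close to equality.

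Neutrophil-attracting chemokine genes were lower in the knockout, and several attractants of monocytes and T cells were nearly equal. Ccl1 (9.44 in wild type, 3.64 in knockout) and Ccl24 (8.04 and 3.83), an eotaxin, were under the floor in the knockout. The neutrophil attractants were past the floor on both arrays, Cxcl3 at 12.03 and 9.21, Cxcl2 at 12.44 and 11.06, Cxcl1 at 12.09 and 10.80, and Cxcl5 at 8.32 and 6.93. Ccl17 (-2.64) and Ccl8 (-1.51) were 2-fold or more lower as well. Among attractants of monocytes and T cells Ccl3 differed by -0.06, Ccl4 by -0.07, Ccl5 by -0.01, Cxcl10 by 0.11 and Ccl2 by 0.21. Cxcl12, a stromal chemokine that the stromal marker list also holds, read 3.69 and 9.09. Cx3cl1 was the other higher member (1.57). In all, 8 of 24 were 2-fold or more lower and 2 higher, beside 5.65% and 9.76% over all genes. In the unstimulated pair 15 of 21 were at least 2-fold lower, beside 5.74% lower over all 9045 genes there, and Acod1, an LPS-inducible enzyme gene, had a like pair of differences (-5.16 unstimulated, -0.12 with LPS). Of chemoattractant receptors, Ccr7 (9.64 and 7.25) and Ccr1 (9.96 and 7.91) were lower. The anaphylatoxin receptors C3ar1 (10.17 and 11.80) and C5ar1 (11.62 and 12.70) were higher, and so were Cx3cr1 (2.90) and Ackr3 (3.27), both under the floor in wild type.

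Interferon-inducible genes were close to equal between the genotypes after LPS. Of 37 interferon-stimulated genes past the floor, all on both arrays, 36 lay within 2-fold, beside 84.6% of all members, and the exception was Isg20, an exonuclease gene (10.43 and 11.66). Most were higher in the knockout by small amounts: 33 of 37 were above 0, with a median of 0.22 beside 0.04 over all genes. The lowest difference was that of Xaf1, at 11.46 and 10.48 (-0.98). Rsad2, which encodes viperin, read 14.04 and 14.07, and the interferon-induced Ifit1 13.35 and 13.25. For the interferon-inducible GTPases, which act on vacuoles holding microbes, 10 of 11 were within 2-fold with LPS (median 0.03), the exception being Gbp8 (-1.25). Unstimulated, all 11 were 2-fold or more lower in the knockout (median -3.61). Iigp1, for example, read 9.77 and 5.22 unstimulated and 12.16 and 12.17 with LPS. Whether the differences of the pairs differ was not tested, with 1 array a group. MHC class I genes also lay within 2-fold in 16 of 16 cases, between -0.37 and 0.22.

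A pair of interferon-inducible genes stood far from this group. Ifi202b, of the PYHIN family of DNA sensors, read 3.65 and 5.41 in wild type, under the floor on both arrays, and 8.86 and 12.83 in knockout. Trim12a, of the Trim5 cluster, read 3.04 and 3.40 in wild type and 6.75 and 9.38 in knockout. Both were thus read as present on knockout arrays and at background on wild-type arrays. Their neighbours in the families did not share this: Ifi204 differed by -0.06, Mndal by -0.14, Ifi209 by -0.48 and Trim12c by 0.35, while Ifi203 was lower (8.23 and 6.42). Trim5 and Trim6 were higher by 1.56 and 1.74 from readings under the floor in wild type. Members of these families have near copies, and cross-hybridisation between them was not tested.

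Among upstream signalling genes the LPS receptor Tlr4 was lower, and most others were within 2-fold, as were 84.6% of all members. Of 28 NF-kB and feedback regulators 26 lay within 2-fold (median 0.04). The exceptions were Cish, a suppressor of cytokine signalling induced through STAT5, at 9.43 in wild type and 7.13 in knockout, and Dusp2, a MAP kinase phosphatase gene, at 7.40 and 9.53. Cish was lower without LPS too (8.65 and 3.75). In the Toll-like receptor list 19 of 21 lay within 2-fold, while Tlr4, the LPS receptor itself, read 10.15 and 8.69 with LPS and 10.61 and 9.24 without. Its co-receptor genes Cd14 (-0.31) and Ly96 (0.07) were within 2-fold. The other exception, the related Cd180, was higher in the knockout with LPS (1.04). Of 13 inflammasome genes 11 were within 2-fold, the same share as over all members, with Nlrp3, the sensor gene, at -0.77. Casp12 and Nlrp10 were higher by 2.19 and 1.87, both from under the floor in wild type.

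Several genes of arginine uptake and use, Arg1, Nos2, Arg2 and Slc7a2, were lower in the knockout with LPS. Arg1, arginase 1, read 12.58 in wild type and 8.79 in knockout, and Nos2, inducible nitric oxide synthase, which draws on the same substrate, 10.87 and 8.08. Arg2, the mitochondrial arginase, read 8.85 and 6.76, yet 7.23 and 7.62 unstimulated. Slc7a2, the arginine transporter, was lower at 13.002 and 11.12, and Ass1, which rebuilds arginine from citrulline, at 7.04 and 4.80. Kynu, of tryptophan breakdown, read 8.68 and 6.69. Others were not lower by 2-fold: Asl, which makes arginine, differed by -0.04 and Gatm, which uses it for creatine synthesis, by 0.66. In this list, which also holds the tryptophan gene Kynu, 6 of 13 were 2-fold or more lower, beside 5.65% over all genes, and Srm, spermidine synthase, was higher (6.196 and 7.57).

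Genes used as markers of alternative activation were split in both directions. Of 26 members 10 were at least 2-fold lower and 7 higher, beside 5.65% and 9.76% over all genes, with a median of -0.82. Where both arrays passed the floor, 6 of 21 were lower and 6 higher, beside 4.05% and 4.54% over all such genes, with a median of -0.38. The lower side held Mgl2, a galactose-type lectin gene (10.21 and 5.63), Cdh1, E-cadherin (8.18 and 4.73), Pdcd1lg2, which encodes PD-L2 (10.10 and 6.75), and Egr2 (11.54 and 10.41). On the higher side stood Folr2, a folate receptor gene (9.57 and 11.93), F13a1, coagulation factor XIII (9.03 and 11.17), Klf4 (6.52 and 7.92) and Tfrc, the transferrin receptor (10.07 and 11.35). The higher genes Cd163 (3.27 and 7.99) and Stab1 (9.30 and 10.82) encode scavenger receptors. The list and its lower side were known from earlier results on these arrays and are a description only.

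MHC class II genes were lower in the knockout as a group, from the transactivator to the peptide loading machinery. The class II molecules present peptides to CD4+ T cells, Cd74 is their invariant chain, H2-DM and H2-O exchange and guard the peptide, and Ciita is the coactivator that class II promoters require. H2-Aa read 12.40 and 12.22 in wild type without and with LPS, and 9.64 and 9.74 in knockout. H2-Ab1 read 12.42 and 9.81 with LPS, and H2-Eb1 12.28 and 9.58. H2-DMb2 (9.87 and 6.63) and H2-DMa (10.51 and 8.43) were lower by a like amount. Ciita, at 6.42 and 4.55, and H2-Oa, at 6.97 and 4.22, were under the floor in the knockout. Of 12 members 8 were 2-fold or more lower and none higher (median -1.98), beside 5.65% lower over all genes. The promoter-binding factor genes Rfx5 (-0.03) and Rfxap (-0.21) and the protease gene Ctss (-0.36) were within 2-fold. Cd74 read 13.88 and 12.31. The dendritic cell list had 5 of 9 past the floor lower by 2-fold or more, beside 5.65% over all genes, and summed levels of 13.91 and 13.68. Its lower members included Itgax, the CD11c gene (12.35 and 9.98), Zbtb46 (6.46 and 5.22) and Dpp4 (8.23 and 6.99). Its members Tcf4 (0.94), Bst2 (0.44) and Fscn1 (0.28) were above 0. The part of dendritic cells in the class II values was not tested.

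Class II promoters carry a conserved X box, bound by the RFX complex, and a Y box, bound by NF-Y, which together recruit Ciita. The 130 bases before the start site are printed for 4 class II genes that were lower together, from RefSeq on GRCm38.p6, all on chromosome 17. Capitals mark the Y box core ATTGG, read as CCAAT where it lies on the other strand, and in H2-Eb1 and H2-DMb2 also a match to the X box form AACNGATG, searched on both strands and chosen after a longer form had been searched. H2-Aa lies at chr17:34287824-34287953 on the minus strand, H2-Eb1 at chr17:34305737-34305866, H2-DMb2 at chr17:34145119-34145248 and H2-Oa at chr17:34092249-34092378 on the plus strand.
H2-Aa: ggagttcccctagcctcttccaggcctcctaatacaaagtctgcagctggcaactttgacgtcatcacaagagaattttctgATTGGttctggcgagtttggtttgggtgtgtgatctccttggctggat
H2-Eb1: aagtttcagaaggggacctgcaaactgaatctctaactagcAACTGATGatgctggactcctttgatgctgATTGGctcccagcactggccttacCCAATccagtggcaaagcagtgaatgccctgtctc
H2-DMb2: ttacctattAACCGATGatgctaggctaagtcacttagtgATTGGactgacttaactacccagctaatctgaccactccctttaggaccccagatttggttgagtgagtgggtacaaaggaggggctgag
H2-Oa: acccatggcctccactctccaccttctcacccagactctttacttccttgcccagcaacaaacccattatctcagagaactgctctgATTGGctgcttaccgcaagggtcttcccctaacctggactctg
The core begins 48 bases before the start in H2-Aa, 59 and 35 in H2-Eb1, 90 in H2-DMb2 and 43 in H2-Oa, and the X box form 89 bases before it in H2-Eb1 and 121 in H2-DMb2. In the 250 bases before the start, either strand, 33.8% of 32851 promoters hold the core and 1.98% the X box form, so the core alone is common. Of the 12 list members past the floor 8 had a promoter in the table, and 6 of these held the core, Rfx5 and 1 of 2 listed H2-DMa promoters included. In H2-DMa, which differed by -2.08, the core began 198 bases before the start, further than the 130 bases printed. Ctss, which was within 2-fold (-0.36), also held the X box form, 207 bases before the start. A match of letters is a description and shows no binding.

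**Figure D2:**
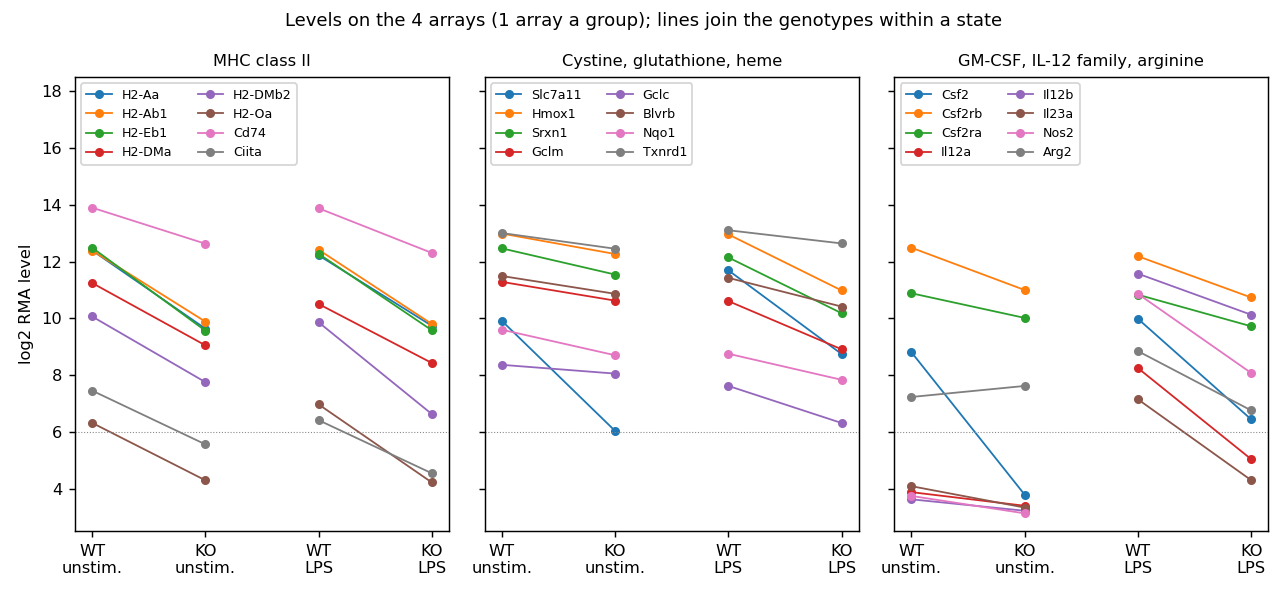
Levels (vertical axis, log2 RMA) on the 4 arrays (horizontal axis, 1 array a group) for MHC class II genes, for genes of cystine, glutathione and heme metabolism, and for GM-CSF, IL-12 family and arginine genes. Points are single arrays, lines join wild type to knockout within a state, and the dotted line is the floor. All 8 class II genes lie lower in the knockout in both states, whereas Il12a, Il23a and Nos2 are under the floor in both unstimulated cells.

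Costimulatory genes, which accompany antigen presentation, were mixed. Cd80 was lower (10.06 and 8.53) and Cd86 nearly equal (11.62 and 11.65). Cd83 (11.02 and 12.93), Vsir (6.41 and 8.06), the checkpoint gene of VISTA, Icosl (9.60 and 10.97) and Havcr2, which encodes TIM-3 (6.999 and 8.28), were higher. The list had 4 of 16 higher and 3 lower by 2-fold or more, beside 9.76% and 5.65% over all genes.

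Pattern receptors of the C-type lectin family were lower or within 2-fold, while scavenger and efferocytosis genes went both ways. Of 13 lectin genes past the floor 5 were at least 2-fold lower and 0 higher, beside 5.65% and 9.76% over all genes. Beside Clec4n and Mgl2 these were Clec7a, the beta-glucan receptor dectin-1 (11.86 and 9.98), Clec4a2 (9.73 and 8.49) and Clec1b (8.51 and 6.49). Clec4e, the receptor Mincle, differed by -0.92, and Clec4d by -0.25. Of 16 scavenger and efferocytosis genes 6 were at least 2-fold higher and 2 lower, beside 9.76% and 5.65% over all genes. With both arrays past the floor 3 of 13 were higher and 2 lower, beside 4.54% and 4.05% over all such genes. Cd5l (6.67 and 10.33) was higher, as was Mfge8, a bridging protein for dying cells (8.53 and 9.62). Timd4, a phosphatidylserine receptor gene, read 4.53 and 8.76 with LPS but 3.94 and 4.32 without. Gas6, the ligand of the TAM receptors, was higher at 5.10 and 8.44, whereas Mertk, a TAM receptor, was lower (11.33 and 10.23) and Axl nearly equal (-0.02). Marco, a scavenger receptor for bacteria, was lower at 9.83 and 6.89.

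Other surface and complement genes went both ways. Pirb, an inhibitory receptor gene, read 8.95 and 10.62, and Siglece 4.10 and 6.10, whereas Pilra (11.10 and 9.25) and Trem1 (7.47 and 5.63), an amplifier of inflammatory signals, were lower. The ITAM adaptors Tyrobp (0.02) and Fcer1g (0.15) were nearly equal. For complement, Serping1, the C1 inhibitor, was higher (5.69 and 9.14) and C1ra (9.26 and 7.83) and Cfb (12.62 and 11.48) lower, while C1qa, C1qb and C1qc were within 2-fold (between 0.46 and 0.56). Of 19 integrin and adhesion genes 5 were lower and 3 higher by 2-fold, beside 5.65% and 9.76% over all genes. Itgb7 (8.62 and 7.06) and Itga1 (8.18 and 6.50) were on the lower side, and Itga6 (7.38 and 9.82) and Itgb3 (4.84 and 7.61) on the higher.

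Coagulation initiators and several protease inhibitors were lower in the knockout, while thrombomodulin was higher. F3, tissue factor, the trigger of coagulation, read 10.01 and 6.62. Its partner F7 read 9.70 and 5.70, and their substrate F10 13.23 and 10.33. Conversely Thbd, thrombomodulin, read 5.88 and 10.44, and Tfpi2, a relative of the tissue factor inhibitor, 5.18 and 9.40, while Tfpi itself differed by 0.46. Procr, the protein C receptor gene, was lower (12.94 and 11.13). The granzyme B inhibitor Serpinb9 (11.19 and 8.89), its relative Serpinb9b (8.27 and 3.38), Serpinb2 (11.09 and 9.35) and the leukocyte protease inhibitor Slpi (12.58 and 9.94) were lower. In this list 10 of 21 were 2-fold or more lower and 6 higher, beside 5.65% and 9.76% over all genes. The higher members Serpinh1, the collagen chaperone, and Serpinf1 (4.40) stood beside stromal markers.

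Matrix proteases and their inhibitors were more often higher, 9 of 18 against 3 lower, beside 9.76% and 5.65% over all genes. Their median was 0.76, or 0.23 with both arrays past the floor. Stromal markers, of which 21 of 26 were higher, and granulocyte markers, which include Mmp8 and Mmp9, differed on the same arrays, and their part was not tested. Timp3 read 6.81 and 9.81, Timp1 11.25 and 12.50, Mmp23 4.46 and 8.03, and Mmp10 4.85 and 7.42. Mmp12, the macrophage elastase, was lower (12.999 and 11.89), as was Mmp19 (11.19 and 8.97), and Mmp13 differed by -0.39. Of prostanoid genes, the synthases Ptgs2 (-0.49) and Ptges (-0.32) were within 2-fold. Prostaglandin E2 receptors split, Ptger2 being lower (8.23 and 6.25) and Ptger4 higher (10.63 and 11.82). Hpgd, which inactivates prostaglandins, read 4.86 and 7.79, and Hpgds 4.38 and 7.202, both under the floor in wild type.

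In the TGF-beta superfamily, activin and its antagonist were lower with LPS. Inhba, the activin A subunit, read 9.37 and 9.56 unstimulated and 12.21 and 10.12 with LPS. Fst, follistatin, which binds activin, read 5.62 and 6.64 unstimulated and 10.24 and 7.74 with LPS. Wild type with LPS was the highest of the 4 arrays for both. Among targets and mediators of BMP and TGF-beta, higher levels were read for Id3 (4.90 and 8.84), Smad3 (6.22 and 8.92), Ltbp1 (6.46 and 10.23) and the ligand Tgfb2 (4.67 and 8.12). Others were within 2-fold, with Id2 at -0.49, Tgfbi at -0.35, Smad7 at 0.12, Skil at 0.26 and Tgfbr1 at 0.17, and the ligand Tgfb1 was lower (-1.04). Of 18 members 10 were at least 2-fold higher, beside 9.76% over all genes, but 3 of these were past the floor on both arrays. The median was 1.25, or 0.12 with both arrays past the floor. Developmental factors of mesenchyme passed the floor in the knockout alone, Prrx1 at 9.16, Snai2 at 9.17 and Tbx3 at 8.68. Of 24 genes of the Hox list with a probe set 8 passed the floor, and the rest were under it on both LPS arrays. Others past it were Twist1 (3.42 in wild type, 6.70 in knockout) and Nr2f2 (3.06 and 6.06). Pbx3 was nearly equal (6.32 and 6.33), and Gata2 was lower in the knockout (8.77 and 5.73). Stromal markers were higher on the same arrays, and their part in these values was not tested.

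Genes of glutathione, cystine and heme metabolism, many of them known targets of the oxidative stress factor Nrf2, were lower in the knockout with LPS. Slc7a11, the cystine importer, read 9.92 and 11.70 in wild type without and with LPS, and 6.04 and 8.75 in knockout. Hmox1, heme oxygenase 1, read 12.96 and 10.99 with LPS (12.99 and 12.27 unstimulated). Srxn1, sulfiredoxin, read 12.15 and 10.19, and the subunits of the rate-limiting enzyme of glutathione synthesis 10.61 and 8.92 (Gclm) and 7.63 and 6.32 (Gclc). Unstimulated, Srxn1, Gclm and Gclc differed by -0.92, -0.66 and -0.31, less than with LPS, while Slc7a11 differed by more (-3.88). Blvrb, biliverdin reductase B, differed by -1.01. Nqo1 (-0.92), Txnrd1 (-0.46) and Gsr (-0.31) lay within 2-fold. Of these 9 genes, grouped after their values were seen, 6 were 2-fold or more lower with LPS and 1 unstimulated. In the whole iron, heme and redox list 8 of 20 were 2-fold or more lower and 3 higher, beside 5.65% and 9.76% over all genes (median -0.54). Iron exporter ferroportin (Slc40a1) read 8.94 and 7.79, and Hamp, whose product hepcidin binds ferroportin, 9.71 and 8.51. The higher members were Tfrc, Lcn2, a granulocyte list member whose product binds bacterial siderophores (10.42 and 11.90), and Ncf1 (10.27 and 11.30).

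Glycolytic genes were lower by small amounts. Of 21 members 18 lay within 2-fold, beside 84.6% of all members. Below 0 were 17, 3 of them by 2-fold or more, beside 5.65% lower over all genes. The median was -0.35 against 0.04 over all genes. The lactate exporter Slc16a3 read 10.78 and 9.39, the phosphofructokinase gene Pfkl 10.16 and 8.89, and Ero1a 11.80 and 10.79. Hif1a, the hypoxia factor, differed by -0.65, and the glucose transporter Slc2a1 by -0.74. Mitochondrial genes were within 2-fold in 16 of 17 cases, beside 84.6% of all members, the exception being Cox6a2 (-2.24). Among lipid genes, Apoe, which carries cholesterol out of macrophages, was higher (10.25 and 12.71), as was Scd1 (7.53 and 9.33), and the exporter Abca1 was lower (10.39 and 8.61). Of 21 lysosomal genes 17 were within 2-fold, near that share. The exceptions were the proton pump subunit Atp6v0d2 (9.91 and 7.93) and Ctsk (7.67 and 6.22), both also osteoclast markers, with Lgmn (8.67 and 10.48) and Ctse (2.95 and 7.87) higher. Osteoclast markers as a list had 3 of 12 lower and 3 higher by 2-fold or more, beside 5.65% and 9.76% over all genes.

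**Figure D3:**
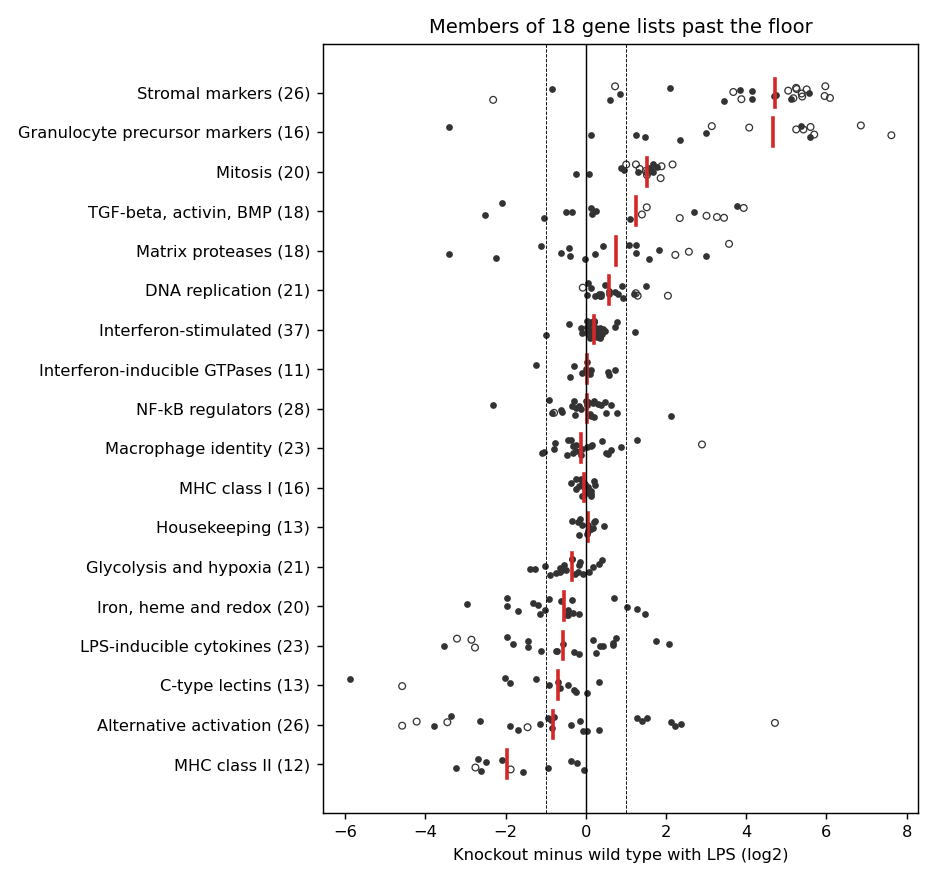
Differences (horizontal axis, knockout minus wild type with LPS, log2) of the members past the floor of 18 gene lists (vertical axis, number of members in brackets), 1 point a gene. Filled points were past the floor on both arrays and open points on 1, red bars are medians and dashed lines mark 2-fold. Stromal and granulocyte markers have medians of 4.72 and 4.66, interferon-stimulated genes cluster near 0.22, and MHC class II genes lie to the left at -1.98.

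Most mitosis genes were higher in the LPS-treated knockout, on the array with more granulocyte and stromal marker signal, whose part was not tested. Of 20 members 16 were at least 2-fold higher and 0 lower, beside 9.76% higher over all genes. With both arrays past the floor it was 6 of 10, beside 4.54% over all such genes. Ccna2, cyclin A2, read 9.04 and 6.41 in wild type and 9.95 and 8.19 in knockout, without and with LPS. Prc1, which organises the spindle midzone, read 7.60 and 9.28, and Kif11, a spindle motor, 4.81 and 6.98. Mki67, a proliferation marker, did not differ in this way (9.77 and 9.85), nor did Bub1b (-0.23). DNA replication genes were less far apart, 5 of 21 higher by 2-fold (median 0.58), beside 9.76% over all genes. Tk1 differed by 2.05, Mcm6 by 1.22 and Pcna by 0.34. Genes of p53 and apoptosis were within 2-fold in all 15 cases past the floor, beside 84.6% of all members.

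Transcription factor genes varied on both sides. Fos (9.92 and 11.91), Egr1 (10.41 and 11.72), Cebpd (7.93 and 9.29) and Klf2 (6.53 and 8.11) were higher in the LPS-treated knockout, as was Myc (6.66 and 8.87). On the lower side were Irf4 (9.57 and 7.88), Nr4a3 (11.54 and 9.63), Bhlhe40 (10.86 and 9.40), Cebpa (9.52 and 8.28) and Mafg (9.18 and 7.85). Spi1, which encodes the macrophage master factor PU.1, was nearly equal (9.98 and 9.82). Genes of H3K27 methylation were mostly within 2-fold: Kdm6a, the related demethylase, differed by -0.31, Suz12 by 0.16, Eed by -0.18 and Ezh2, the methyltransferase, by 0.83. Of 14 such genes 13 were within 2-fold, beside 84.6% of all members, and the exception was Mtf2, a PRC2 accessory factor (9.77 and 8.75).

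Markers of lymphocytes, mast cells and basophils were mostly past the floor on 1 array alone. At least 2-fold lower in the knockout were 7 of 11 lymphocyte and 7 of 9 mast cell, basophil and eosinophil genes, beside 5.65% over all genes. All of these passed the floor on the wild-type array alone. At least 2-fold higher were 3 of the lymphocyte genes and 1 of the others, beside 9.76% over all genes, and these passed it on the knockout array alone. Most of all genes passed it on both arrays, so the shares over all genes are not a like measure. On the wild-type LPS array Cd3e read 7.49, Cd3g 6.50 and Gzmb 8.69, against 4.69, 3.33 and 3.31, all under the floor, in knockout. The members that ran the other way were the granzyme genes Gzme, at 3.18 and 8.85, the list's largest difference in size, and Gzmd, at 3.28 and 6.96, and the B cell factor gene Ebf1, at 4.42 and 7.73. Of the T, NK and B list 11 of 25 passed the floor, 1 on both arrays, with summed levels of 10.76 in wild type and 10.34 in knockout. Fcer1a, the IgE receptor gene, read 7.31 and 2.73, the basophil protease Mcpt8 8.40 and 5.85, and Cpa3 6.77 and 3.34. Summed levels of the mast cell, basophil and eosinophil list were 11.19 and 11.10, and Prg2 (4.36 and 8.82) was higher in the knockout while Hdc (9.53 and 10.44) was past the floor on both. Granulocyte and stromal markers were higher on the knockout array.

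The unstimulated arrays gave a second view of the genotype difference, since the pairs share no array. Across 8290 genes past the floor in both pairs, the differences correlated at r = 0.82 (Spearman rho = 0.58), as a description across genes, which share the cultures' genotype and cell make-up and are not independent. Of 742 genes 2-fold or more higher with LPS 70.5% were so unstimulated, and these were 76.8% of the 681 higher unstimulated. Over all 9045 genes past the floor there, 9.54% were higher and 5.74% lower. Of 404 lower with LPS 55.0% were lower unstimulated, or 45.7% of the 486 lower there. Opposite 2-fold differences were seen for 9 genes higher with LPS and lower without, and for 5 the other way.

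**Figure D4:**
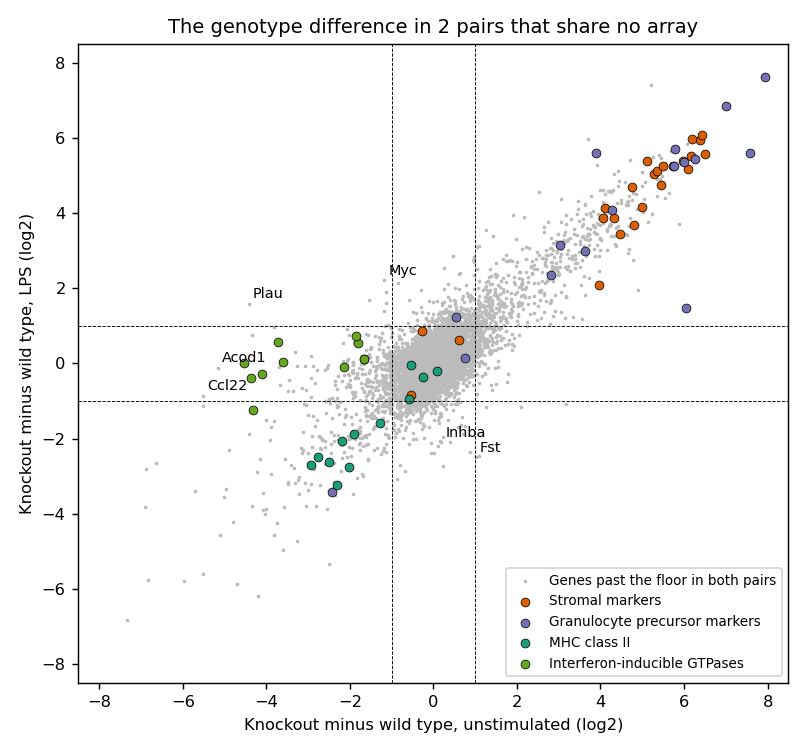
The knockout minus wild type difference (log2) without LPS (horizontal axis) and with LPS (vertical axis) for 8290 genes past the floor in both pairs, 1 point a gene, with dashed lines at 2-fold. Stromal and granulocyte markers lie mostly at the upper right, MHC class II genes at the lower left, and the interferon-inducible GTPases at the left near 0 on the vertical axis.

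Some genes were 4-fold or more apart with LPS and within log2 0.3 of each other without, a set picked after the data were seen and read with no test. There were 15 lower and 11 higher in the LPS-treated knockout. Mycl, a Myc family gene, read 3.76 in wild type and 7.88 in knockout with LPS, and 3.32 and 3.32 unstimulated. Lipg, an endothelial-type lipase gene, read 7.49 and 10.18 with LPS, and 4.01 and 4.14 unstimulated. Ccl20, a chemokine gene, read 3.99 and 6.97, so that the knockout LPS array alone was past the floor, as it was for Clic5 (7.501), F8 (6.15) and Pdgfrl (7.21). On the lower side Nts, neurotensin, read 7.70 and 3.17, and Csf3, the G-CSF gene, 6.23 and 3.47. Ptch1, the Hedgehog receptor gene, was past the floor on all 4 arrays, at 8.69 and 11.58 in wild type and 8.79 and 9.40 in knockout. Clmp (9.68 and 6.96), H60c, an NKG2D ligand gene (7.92 and 4.80), and Il1bos, a transcript antisense to Il1b (6.97 and 3.28), were nearly equal without LPS as well.

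**Figure D5:**
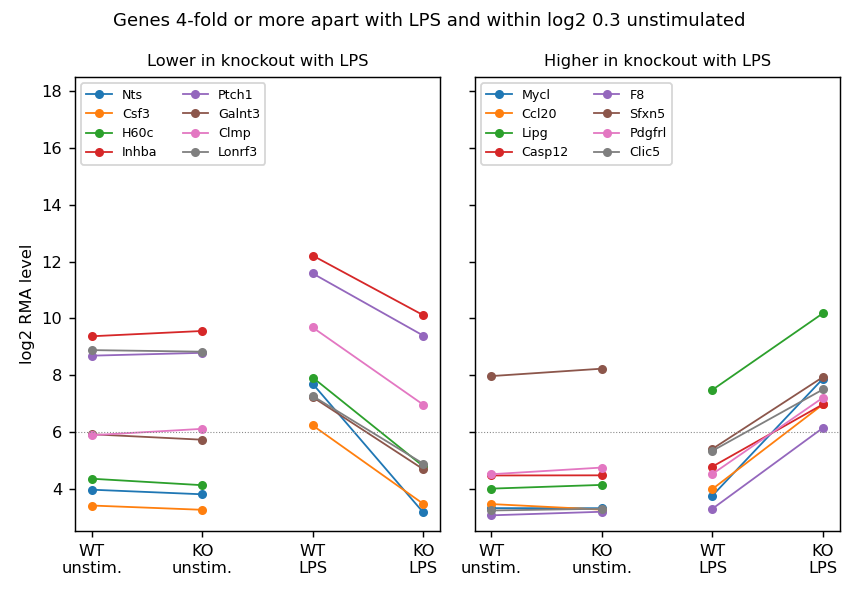
Levels (vertical axis, log2 RMA) on the 4 arrays (horizontal axis, 1 array a group) of 8 genes lower and 8 genes higher in the knockout with LPS that were nearly equal without. Points are single arrays, lines join the genotypes within a state, and the dotted line marks the floor. Inhba and Ptch1 are past the floor on every array, while Nts and Csf3 pass it in LPS-treated wild type alone. Most of the genes shown are under the floor on both unstimulated arrays.

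Genes with a 2-fold difference lay on every chromosome counted. Their share ran from 12.2% on chromosomes 5 and 11 to 21.1% on chromosome 6, around 15.4% over all members. Kdm6b lies on chromosome 11, and of 78 members starting within 5 Mb of it 5 were at least 2-fold higher and 3 lower, or 10.3%.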

How the data were processed

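RNA of 4 macrophage cultures was made into biotinylated cRNA (NuGEN Ovation) for 1 microarray each, per the labels' protocols. The deposited values are log2 intensities made by the authors with RMA, per the submitters' processing notes; for the RMA version and settings, nothing is stated. Of 45101 probe sets, 64 were controls, 34945 named 1 gene, 932 several and 9160 none in GEO's platform annotation, and 34741 of the 1-gene probe sets matched RefSeq (GRCm38.p6). Values were used as deposited, with no further normalization, in Python 3.11.15 with pandas 2.3.3, numpy 2.4.6 and scipy 1.17.1. Each gene was read from its brightest probe set by the mean of the 4 arrays, and genes at log2 6 or more on the higher LPS array were kept. Thresholds of 2-fold and 4-fold describe sizes: with 1 array a group there is no SD, test or p-value, and the number of arrays limits the precision. The steps were tested on simulated data.

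Named were every Kdm6b probe set, the defining markers, and the 15 highest and 15 lowest genes past the floor on both arrays. Also named were the 12 brightest of each genotype among genes 4-fold apart with the other array under the floor. From 47 gene lists, some of the 6 members with the largest differences were named, with some controls. Other genes named were chosen after their values were seen. The members and lists were chosen with earlier results of these data known. The 11 alternatives tried were other floors, other choices of probe set, an added constant and other scalings. Promoter sequences are from RefSeq.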

Additional observations from a re-analysis of the deposited data

Results flagged for a closer look

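A few listed genes were at least 2-fold apart in opposite directions with and without LPS. Whether the pairs differ was not tested, with 1 array a group. Plau, the urokinase gene, was higher in the knockout with LPS by 1.58 (8.08 in wild type, 9.65 in knockout) and lower without by -4.42 (9.77 and 5.36). Myc differed by 2.22 with LPS and -1.18 without, Id1 by 1.40 and -1.17, and Egr3 by 1.03 and -1.10. Id1 and Egr3 were under the floor on the wild-type LPS array. The other way, Fst differed by -2.50 with LPS and 1.02 without, and Serpinb1a, a neutrophil elastase inhibitor gene, by -1.09 and 3.18.

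Probe sets that name no gene or several genes entered no comparison above. Of 1657 such probe sets past the floor on the LPS pair, 95 (5.73%) lay at least 2-fold higher in the knockout and 150 (9.05%) at least 2-fold lower.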

How the results depend on the processing

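No paired analysis was possible because the labels give no replicate numbers and each group held 1 array. For the same reason no array could be left out. The count of genes 2-fold or more higher in the knockout with LPS, 842, was 382 with a floor of log2 8, 343 with log2 6 required on both arrays, 517 with the mean over a gene's probe sets and 494 after adding 64 on the linear scale. The count lower, 488, was 305 with a floor of log2 8, 306 with log2 6 on both arrays and 319 with 64 added. Under the remaining alternatives both counts stayed within 1.5 times. A floor does not alter the difference of a single gene. For 302 genes, those ranked and the list members at least 2-fold apart, none of 1732 values under the choices of probe set, the added constant and the scalings changed sign. Differences under 2-fold were not followed in this way. For the 9 list medians of 1 or more in size, 2 of 99 did: with log2 6 on both arrays, which left 1 gene each, the T, NK and B list's median was 0.27 in place of -2.14, and that of the mast cell, basophil and eosinophil list 0.91 in place of -3.04. List medians moved more in size. With log2 6 on both arrays the median of granulocyte precursor markers went from 4.66 to 1.92, of the TGF-beta list from 1.25 to 0.12, of alternative activation from -0.82 to -0.38, of matrix proteases from 0.76 to 0.23 and of cytokines from -0.56 to -0.23. With 64 added, that of granulocyte markers was 2.93, of TGF-beta 0.79 and of mitosis 0.88 in place of 1.53. With the mean over probe sets the medians of the TGF-beta, mitosis, DNA replication and iron, heme and redox lists were 0.25, 1.01, 0.36 and -0.86. Signal near background limits the sizes given for genes under the floor on an array.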

Other observations

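Beyond the listed genes, opposite 2-fold differences with and without LPS were seen for Cav1, the caveolin gene, at 5.21 in wild type and 6.30 in knockout unstimulated, and 10.36 and 7.89 with LPS. Plagl1, a zinc finger factor gene, had the same order (5.62 and 7.73, then 9.50 and 8.33). Ifngr2, a subunit of the interferon gamma receptor, read 8.77 and 10.02 unstimulated, and 9.86 and 8.69 with LPS. The reverse order held for Ednrb, an endothelin receptor gene (8.84 and 7.75, then 8.91 and 9.94), and for Rnase6, an antimicrobial ribonuclease gene (7.18 and 6.03, then 5.93 and 7.82). These genes were chosen after their values were seen, and no difference between the pairs was tested.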
